A study of Eriocheir sinensis with 6 samples.

Results

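mth2 (gene evm.TU.CM024134.1.314) is the Methuselah-type receptor gene of the Chinese mitten crab *Eriocheir sinensis*, and its chromatin accessibility was compared between post-molt and pre-molt muscle. Its members were all merged peaks that the deposited peak table links to this gene ID, which gave 11 of 104657 merged peaks, for 1 of 17908 genes with a linked peak. A merged peak is an interval of open chromatin for which the table gives a count in each of the 6 libraries, and the table links each one to a single gene. Which peaks belong to the gene followed from the gene link alone, but the gene itself was picked with earlier accessibility results of these libraries known, and the study kept it partly on them.

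The assay was ATAC-seq. The enzyme Tn5 cuts DNA where it is accessible, so that more reads in an interval mean more open chromatin there. Muscle came from 3 crabs at the post-molt stage (stage A, after the old shell is shed) and 3 crabs at the pre-molt stage (stage D, before shedding). All were healthy juveniles that weighed 8.41 ± 1.47 g on average, with no treatment apart from cold anaesthesia at sampling. Each sample was taken from one animal, according to the study's methods. The spread between replicates therefore includes the spread between animals. The tissue is bulk muscle, so a smaller number of cells of one type and less open chromatin per cell cannot be told apart. The muscle label was not checked against marker genes here, because the gene IDs of the table carry no names.

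Methuselah proteins form a family of G protein-coupled receptors, best known from insects, that sit in the cell membrane and resemble the secretin-type receptors of vertebrates. The founding member, methuselah of the fruit fly *Drosophila melanogaster*, is known for its effect on lifespan and on resistance to stress. The role of mth2 in crab muscle is not established by the peak table, which measures how open the DNA is and not how much RNA or protein is made.

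The libraries held 42955326, 48100048 and 44543430 reads in post-molt replicates 1, 2 and 3, against 51652893, 46296296 and 41050903 in pre-molt replicates 1, 2 and 3. In all, 10992785 to 16985168 of a library's reads fell in merged peaks, and the median merged peak held 46 to 58 reads per library. Merged peaks took 24.7% to 26.3% of the reads in post-molt libraries, against 23.8% and 27.9% in pre-molt replicates 1 and 3. Pre-molt replicate 2 stood apart with 36.7%. Values are given below as CPM, the reads in a peak per 1000000 reads in all merged peaks after TMM scaling, with mean ± SD over 3 libraries a stage. A change is called when the edgeR quasi-likelihood test gave a Benjamini-Hochberg adjusted p below 0.05 over all merged peaks or over all genes.

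mth2 lies on the minus strand of CM024134.1 from 13395350 to 13427538, a span of 32189 bp, so that its start site is at 13427538 and upstream means higher coordinates. Its 11 linked peaks spread over 45.0 kb, from 13411152 inside the gene to 13456177 upstream of it, and distances below are to the edge of a peak nearest the start site. They were 200 to 817 bp wide and together covered 4985 bp. The median gene had 3 linked peaks. The table classes 5 of the 11 as distal intergenic, at 13.1, 15.1, 20.6, 21.1 and 27.8 kb upstream of the start site. A further 2 are promoter peaks, a class that reaches up to 3000 bp from a start site. The other 4 lie in the gene body, with 2 in intron 1 of 9, 1 in exon 3 of 10 and 1 in intron 4 of 9.

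Accessibility at mth2 was higher post-molt. Over the 11 linked peaks together, the gene held 92.2, 96.0 and 69.3 CPM in post-molt replicates 1, 2 and 3, against 30.1, 32.4 and 34.4 CPM in pre-molt replicates 1, 2 and 3. Every post-molt library lay above every pre-molt library, and the means were 85.8 ± 14.4 CPM post-molt and 32.3 ± 2.15 CPM pre-molt. The summed log2 change was 1.41 (SE 0.22), a 2.66-fold higher level, with an edgeR adjusted p of 0.001408 over all genes. Of all genes, 11.0% were called in either direction, 6.90% as higher and 4.11% as lower, and the median gene changed by -0.03 on the log2 scale. The log2 change of mth2 was reached or passed by 2.70% of genes. Of the 11 linked peaks, 9 were listed in post-molt libraries only (below), which favours a higher post-molt sum.

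The difference was also present without scaling to reads in peaks. The summed raw reads were 1065, 1203 and 791 post-molt, against 351, 499 and 413 pre-molt. Scaled to the total of each library, as reads per 1000000 reads, these were 24.8, 25.0 and 17.8 post-molt, against 6.80, 10.8 and 10.1 pre-molt. The stages again did not overlap, and with scaling to library totals the log2 change was 1.29 (edgeR adjusted p = 0.01892). Leaving out any 1 library kept the log2 change between 1.32 and 1.54, and leaving out any 1 of the 11 peaks kept it between 1.34 and 1.55.

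Peak by peak, 7 of the 11 linked peaks were called as higher post-molt, 4 did not pass the test and 0 were called as lower. Of all merged peaks, 9.95% were called in either direction, 6.08% as higher and 3.86% as lower. All 11 had a positive log2 change, from 0.82 to 2.17 with a median of 1.42, where the median over all merged peaks was -0.03. DESeq2 and limma-voom called 8 and 5 of them as higher and likewise 0 as lower, where they called 6.48% and 3.63% of all merged peaks as higher. In 10 of the 11 peaks all 3 post-molt libraries lay above all 3 pre-molt libraries, which held for 15.0% of all merged peaks. The number called depended on single libraries, since it was 3 without post-molt replicate 1, 4 without post-molt replicate 2 and 4 without pre-molt replicate 1. The peaks are small, with 8 to 263 reads in a library, and share a gene and its surroundings, so they are not independent measurements. Of the 11, 9 had a listed peak in post-molt libraries only (below), so they probably entered the merged set through the stage where they are high. That selection favours calls as higher, and 6 of the 7 called peaks are among these 9. Of the 2 peaks listed in both stages, the start-site peak (log2 change 0.82) was not called. The other, 15.1 kb upstream (log2 change 1.41), lost its call without post-molt replicate 1.

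**Figure D1:**
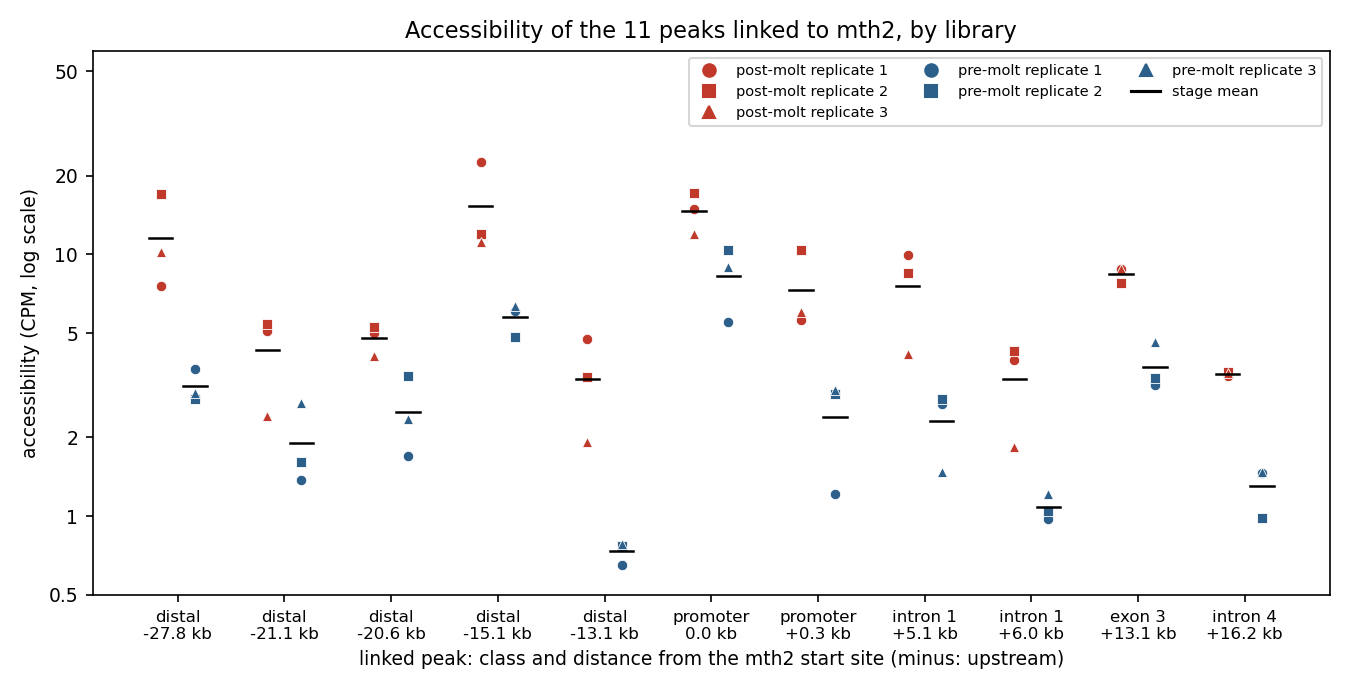
Accessibility in CPM (log axis) of each of the 11 linked peaks, ordered along the gene from 27.8 kb upstream of the start site to 16.2 kb inside it. Red symbols are the 3 post-molt libraries, blue symbols the 3 pre-molt libraries and black lines the stage means, and the stages overlap only at the distal peak 21.1 kb upstream.

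Of the 2 promoter peaks, 1 was called as higher. The peak that covers the start site (13427403 to 13428103, 701 bp) held 14.9, 17.2 and 11.9 CPM in post-molt replicates 1, 2 and 3, against 5.52, 10.4 and 8.96 CPM in pre-molt replicates 1, 2 and 3. The stages did not overlap, but post-molt replicate 3 and pre-molt replicate 2 were close. Its log2 change of 0.82 (SE 0.33) was the smallest among the 11 linked peaks and did not pass the test (edgeR adjusted p = 0.1227). The second promoter peak (13426820 to 13427273) begins 265 bp inside the gene. It held 5.60, 10.4 and 6.01 CPM post-molt, against 1.22, 2.94 and 3.05 CPM pre-molt, with no overlap. This peak was called as higher, with a log2 change of 1.61 (SE 0.41) and an edgeR adjusted p of 0.0146. The call was lost without post-molt replicate 2 (adjusted p = 0.1156) and without pre-molt replicate 1 (adjusted p = 0.06248).

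The position of the opening at the start site was alike in all libraries. MACS2, the program with which the authors called peaks in each library, placed its strongest summit 53, 59 and 62 bp upstream of the start site in post-molt replicates 1, 2 and 3, against 66, 40 and 47 bp in pre-molt replicates 1, 2 and 3. A second, weaker summit was listed 407 and 406 bp upstream in post-molt replicates 1 and 2, and 385 bp upstream in pre-molt replicate 2. The height of the main summit did not order the stages. Its MACS2 fold enrichment over local background was 5.97, 5.71 and 6.37 post-molt, against 4.15, 9.50 and 6.79 pre-molt. The highest value was that of pre-molt replicate 2, which stood apart above by its share of reads in merged peaks.

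The distal peaks included the largest change and the highest level. The peak 13.1 kb upstream (13440601 to 13440800, 200 bp) had the largest fold among the 11. It held 4.73, 3.39 and 1.92 CPM in post-molt replicates 1, 2 and 3, against 0.65, 0.77 and 0.78 CPM in pre-molt replicates 1, 2 and 3. Its reads were 55, 43 and 23 post-molt, against 8, 11 and 9 pre-molt, so the pre-molt level rests on few reads. No overlap was seen and the log2 change was 2.17 (SE 0.55), a 4.51-fold higher level (edgeR adjusted p = 0.01368). The call was lost without post-molt replicate 1 (adjusted p = 0.1169) and with limma-voom (adjusted p = 0.1046).

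The peak 15.1 kb upstream (13442589 to 13443166, 578 bp) was the most open of the 11 per length after the molt, with 26.4 CPM per kb post-molt and 9.96 CPM per kb pre-molt. The start-site peak came next post-molt with 20.9 CPM per kb and led pre-molt with 11.8 CPM per kb. At 15.1 kb upstream the libraries held 22.6, 12.0 and 11.2 CPM post-molt, against 6.09, 4.83 and 6.35 CPM pre-molt. Post-molt replicate 1 was far above the other post-molt libraries here, and the stages did not overlap. The log2 change was 1.41 (SE 0.35), with an edgeR adjusted p of 0.01212, and the call was lost without post-molt replicate 1 (adjusted p = 0.1169).

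The outermost peak, 27.8 kb upstream (13455361 to 13456177, 817 bp), was the widest and the one with the lowest adjusted p. It held 7.58, 17.0 and 10.2 CPM in post-molt replicates 1, 2 and 3, against 3.65, 2.80 and 2.96 CPM in pre-molt replicates 1, 2 and 3. No post-molt value fell into the pre-molt range, and post-molt replicate 2 was the highest. Its log2 change was 1.89 (SE 0.37), a 3.70-fold higher level (edgeR adjusted p = 0.002737), and it stayed called in all 12 alternative fits, the highest adjusted p among them being 0.03218.

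The remaining distal peaks form a close pair between these and did not pass the test. The peak 20.6 kb upstream (13448116 to 13448440) held 4.99, 5.28 and 4.09 CPM post-molt, against 1.70, 3.43 and 2.35 CPM pre-molt, and its stages did not overlap (log2 change 0.93, SE 0.39, edgeR adjusted p = 0.144). The peak 21.1 kb upstream (13448628 to 13448930) held 5.08, 5.44 and 2.42 CPM post-molt, against 1.38, 1.61 and 2.70 CPM pre-molt. It was the single linked peak whose stages overlapped, since post-molt replicate 3 fell below pre-molt replicate 3 (log2 change 1.19, SE 0.44, edgeR adjusted p = 0.09222).

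Inside the gene, 3 of 4 peaks were called as higher. The longer intron 1 peak (13421867 to 13422401), 5.1 kb inside, held 9.99, 8.51 and 4.18 CPM post-molt, against 2.68, 2.80 and 1.48 CPM pre-molt. The stages were apart and the log2 change was 1.69 (SE 0.41, edgeR adjusted p = 0.01001), a call lost without pre-molt replicate 3 (adjusted p = 0.07119). The shorter intron 1 peak (13421329 to 13421547) held 3.96, 4.26 and 1.84 CPM post-molt, against 0.97, 1.05 and 1.22 CPM pre-molt. Its log2 change of 1.63 (SE 0.51) passed narrowly (edgeR adjusted p = 0.04307) and the call was kept in 4 of 12 alternative fits. It was lost without any 1 of 5 libraries, with adjusted p of 0.1559 and 0.2027 without post-molt replicates 1 and 2, and of 0.09052, 0.09155 and 0.08632 without pre-molt replicates 1, 2 and 3. It was also lost with library totals (0.0543), limma-voom (0.144) and the replicate block (0.06863).

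The exon 3 peak (13413796 to 13414448), 13.1 kb inside, had little spread after the molt. It held 8.78, 7.80 and 8.77 CPM post-molt, against 3.16, 3.36 and 4.61 CPM pre-molt, with no overlap. The log2 change was 1.19 (SE 0.34, edgeR adjusted p = 0.02931). The call was kept in 6 of 12 alternative fits. Without post-molt replicates 1, 2 and 3 in turn its adjusted p was 0.08041, 0.07514 and 0.09197, and without pre-molt replicates 1 and 2 in turn it was 0.07297 and 0.07442, while scaling to library totals gave 0.05229. The intron 4 peak (13411152 to 13411351), 16.2 kb inside, held 3.44, 3.55 and 3.51 CPM post-molt, against 1.46, 0.98 and 1.48 CPM pre-molt. Its stages did not overlap, but the log2 change of 1.42 (SE 0.46) stayed just outside the threshold (edgeR adjusted p = 0.05034), while DESeq2 placed it inside (adjusted p = 0.04005).

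By class, the distal peaks together held 39.3 ± 8.28 CPM post-molt and 14.0 ± 0.97 CPM pre-molt. The exon and intron peaks held 22.9 ± 4.09 CPM post-molt and 8.42 ± 0.32 CPM pre-molt, and the promoter peaks 22.0 ± 4.99 CPM post-molt and 10.7 ± 3.48 CPM pre-molt. In each class every post-molt library lay above every pre-molt library. Of the 11 linked peaks, 9 were listed in post-molt libraries only, among them all exon and intron peaks, which favours this order. The promoter peaks took 22.4%, 29.1% and 27.2% of the gene's summed CPM in post-molt replicates 1, 2 and 3, against 23.7%, 38.1% and 33.4% in pre-molt replicates 1, 2 and 3. These shares overlapped between the stages.

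Whether the linked peaks changed by different amounts was tested with edgeR's diffSpliceDGE, which sets each peak's change against that of the gene's other linked peaks. It called 0 of the 11 peaks, with 0 at an unadjusted p below 0.05, where 2.43% of the 100669 peaks tested were called. The estimates ran from -0.52 for the start-site peak to 0.83 for the peak 13.1 kb upstream (log2), with adjusted p of 0.6591 and 0.6551. A difference in change between the linked peaks was therefore not detected, which does not show that they changed alike.

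The libraries of a stage did not contribute evenly. The highest of all 6 values was a post-molt one in 11 of 11 linked peaks, from replicate 2 in 7 peaks, from replicate 1 in 4 and from replicate 3 in 0. Post-molt replicate 3 was the lowest of its stage in 7 peaks. Among the pre-molt libraries, replicate 1 was the lowest in 7 peaks and replicate 3 the highest in 7.

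The authors' peak lists of the single libraries gave a second readout, from the same reads. Of the 11 linked peaks, 8, 8 and 7 held a peak from the lists of post-molt replicates 1, 2 and 3, against 2, 2 and 2 from those of pre-molt replicates 1, 2 and 3. Over all merged peaks the share with a peak from a list was similar in the stages, at 42.7%, 47.8% and 45.4% in post-molt replicates 1, 2 and 3, against 43.4%, 50.3% and 48.2% in pre-molt replicates 1, 2 and 3. The 2 linked peaks listed in every library were the start-site peak and the peak 15.1 kb upstream. The other 9 were listed in at least 1 post-molt library and in no pre-molt library, which held for 25.8% of all merged peaks. Of these 9, the peaks 27.8 and 20.6 kb upstream were the 2 listed in all post-molt libraries.

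**Figure D2:**
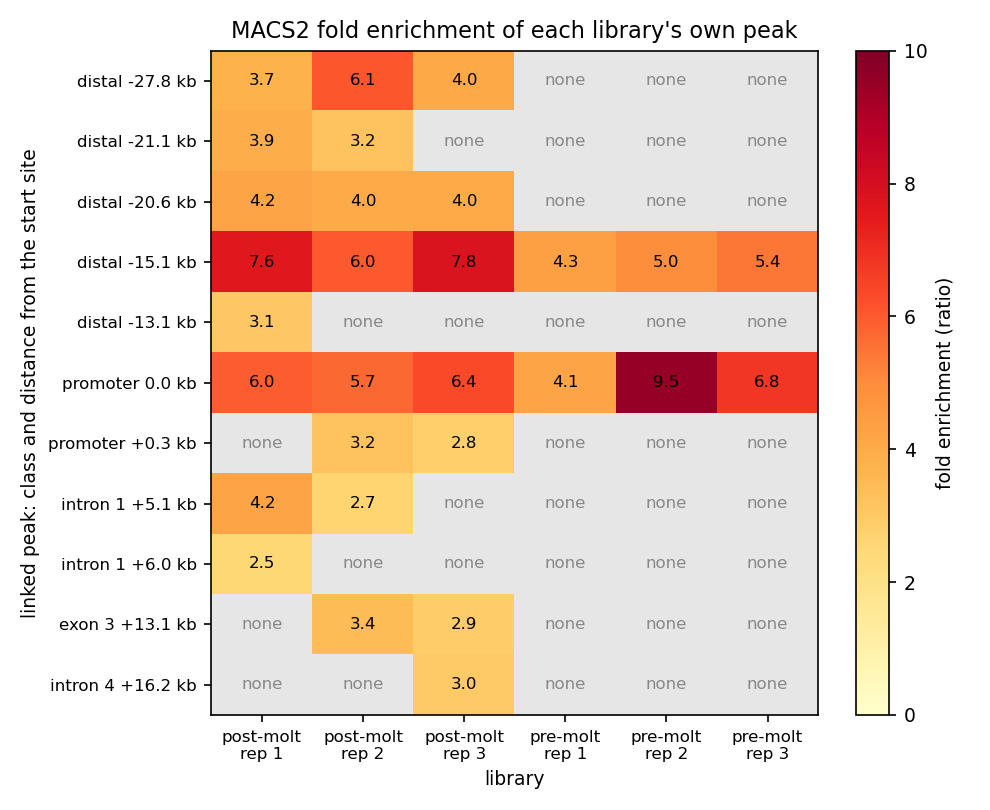
Fold enrichment over local background that MACS2 gave to each library's own peak (colour and number, a ratio) in each of the 11 linked peaks (down the page, by class and distance from the start site) and each of the 6 libraries (across, post-molt left of pre-molt). Grey cells mark a library with no listed peak there, and 9 of the 11 peaks have no value in any pre-molt library.

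A missing list entry did not mean an absence of reads. The peaks not listed in any pre-molt library still held at least 8 reads in each of them. With a −log10 q of at least 5 required, the lists gave 5, 6 and 4 of the 11 post-molt, against 2, 2 and 2 pre-molt. Where a library's peak had to cover 50% of the merged peak, the counts were 8, 7 and 6 post-molt, against 0, 1 and 1 pre-molt. Of the 9 peaks with no pre-molt entry, 6 were among those called as higher by edgeR, where 19.0% of such merged peaks were called. These calls are no independent support, because such peaks are picked by post-molt signal in the same reads that edgeR tested. The share of 19.0% carries the same selection.

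The table links 2 further merged peaks inside the mth2 span to the next gene, evm.TU.CM024134.1.313, whose start site lies nearer to them. The peak in intron 6 of 9 (13405746 to 13405950) had 23, 44 and 11 reads post-molt, against 22, 9 and 12 reads pre-molt (log2 change 0.88, SE 0.65, edgeR adjusted p = 0.4428). The peak in the 3′ UTR (13397378 to 13397620) had 40, 45 and 27 reads post-molt, against 69, 37 and 69 reads pre-molt (log2 change -0.61, SE 0.40, edgeR adjusted p = 0.3887). In both the stages overlapped. With both added to the gene's sum, its log2 change was 1.26 (edgeR adjusted p = 0.002892), and without the 5 distal peaks it was 1.30 (edgeR adjusted p = 0.002225).

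The surroundings of mth2 differed between its sides. Within 100 kb of the gene, 12 merged peaks lie on its 5′ side beyond the linked ones (13464262 to 13509639) and 17 on its 3′ side (13298739 to 13375817). On the 5′ side 3 of 12 were called as higher, against 6.08% of all merged peaks, and all 12 had a positive log2 change, from 0.29 to 1.91 with a median of 0.98. In 8 of the 12 every post-molt library lay above every pre-molt library, which held for 15.0% of all merged peaks. On the 3′ side edgeR called 0 of 17, with 3 at an unadjusted p below 0.05 (1 higher and 2 lower), DESeq2 called 2 as lower and limma-voom 0. There the log2 changes ran from -0.98 to 0.92 with a median of -0.30, and 5 of 17 were positive. In 1 of the 17 every post-molt library lay above every pre-molt library, and in 3 the reverse held. Most of the 12 peaks on the 5′ side were listed in post-molt libraries only, a selection that favours positive changes. On the 3′ side more peaks were listed only pre-molt than only post-molt, so the contrast between the sides carries this selection.

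Among the 5′ peaks called, the one at 13477906 to 13478152 held 1.81, 6.86 and 2.51 CPM post-molt, against 0.81, 0.77 and 1.39 CPM pre-molt (log2 change 1.91, edgeR adjusted p = 0.02857). The peak at 13481185 to 13481559 held 6.89, 8.28 and 5.85 CPM post-molt, against 2.60, 3.36 and 2.78 CPM pre-molt (log2 change 1.26, edgeR adjusted p = 0.0267). The stages did not overlap in either, and both are intergenic and linked to evm.TU.CM024134.1.315. The called peak at 13509186 to 13509639, in intron 1 of evm.TU.CM024134.1.316, held 6.37, 4.34 and 4.18 CPM post-molt, against 0.73, 2.03 and 2.26 CPM pre-molt (log2 change 1.56, edgeR adjusted p = 0.02691). All of these called 5′ peaks were listed in post-molt libraries only, a selection that favours calls as higher.

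**Figure D3:**
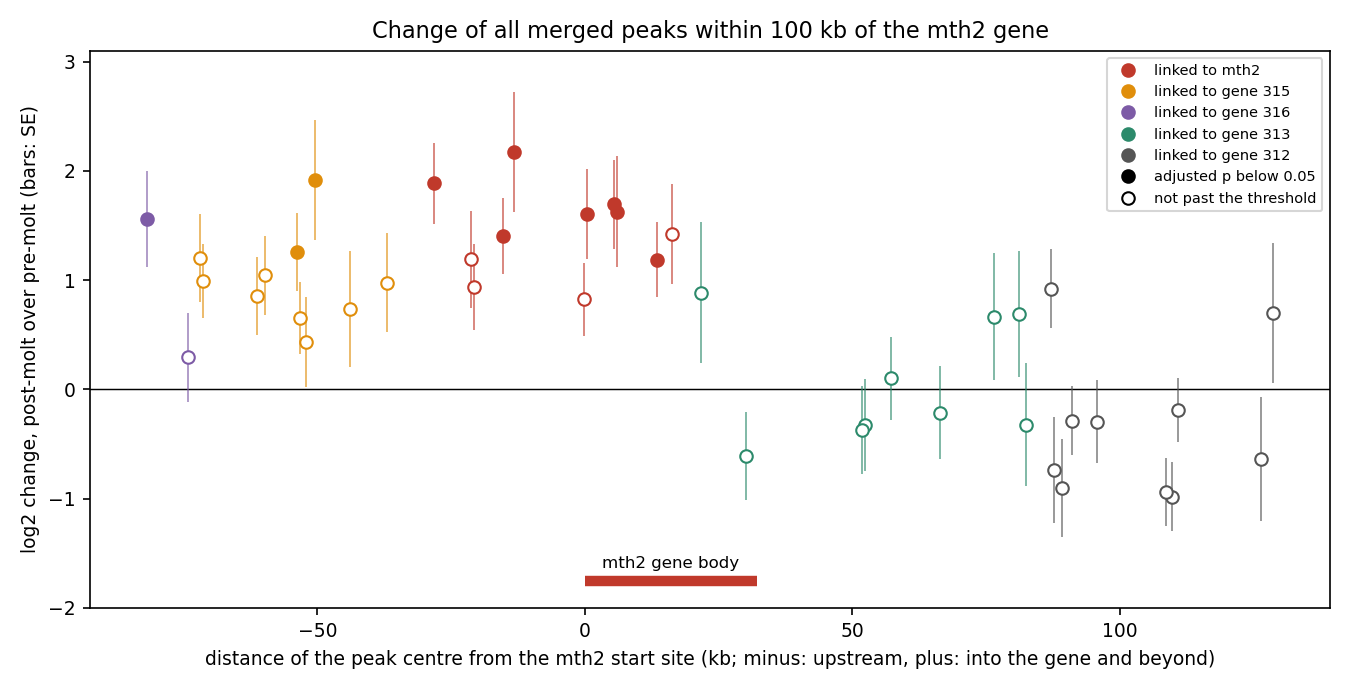
log2 change, post-molt over pre-molt, of every merged peak within 100 kb of mth2 against the distance of its centre from the start site in kb (negative upstream), coloured by linked gene, with bars for 1 SE and filled symbols for an edgeR adjusted p below 0.05. All 11 linked peaks and all 12 peaks beyond them on the 5′ side lie above 0, and 5 of 17 peaks on the 3′ side do. Most linked and 5′ peaks were listed in post-molt libraries only, which favours positive changes.

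Counted along the chromosome, the linked peaks sat in a run of 24 neighbouring merged peaks with a positive log2 change, from 13405746 to 13509639, a stretch of 103.9 kb with peaks linked to 4 genes. Of the 24, 10 were called as higher, against 6.08% of all merged peaks, a share that also covers peaks with a negative change. Only positive changes enter the run, so calls as higher are favoured and calls as lower cannot occur. Of the 11 linked peaks in it, 9 were listed in post-molt libraries only, and so were most of the others. The run was bounded after its values were seen, so it is a description with no test, and 48.3% of all merged peaks had a positive log2 change. The peak before it was the one in the 3′ UTR of mth2, and the peak after it (13535584 to 13535787) had a log2 change of -0.18 (SE 0.61, edgeR adjusted p = 0.8943).

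The 5 genes with linked peaks nearest on each side of mth2 served as its background. Over their summed linked peaks 2 of the 10 were called as higher post-molt and 8 did not pass the test. Of all genes, 6.90% were called as higher and 4.11% as lower. The nearest gene on the 5′ side, evm.TU.CM024134.1.315 (minus strand, 13488596 to 13498861, 10 linked peaks), held 62.3, 67.2 and 49.7 CPM post-molt, against 27.8, 28.2 and 32.6 CPM pre-molt. The stages did not overlap, and its log2 change was 1.02 (SE 0.22, edgeR adjusted p = 0.007536), a call lost with scaling to library totals (adjusted p = 0.07953). Most of its 10 linked peaks were listed in post-molt libraries only, which favours a higher post-molt sum. The next gene on that side, evm.TU.CM024134.1.316, held 9.06 ± 0.38 CPM post-molt and 4.70 ± 1.75 CPM pre-molt and did not pass the test (log2 change 0.94, SE 0.32, edgeR adjusted p = 0.06992).

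The other flanking gene called as higher was evm.TU.CM024134.1.319, with 8.92, 9.50 and 10.2 CPM post-molt, against 5.65, 4.35 and 4.99 CPM pre-molt (log2 change 0.93, SE 0.28, edgeR adjusted p = 0.04255). That call was lost without any 1 of the 6 libraries, with adjusted p of 0.08842, 0.12 and 0.1382 without post-molt replicates 1, 2 and 3 and of 0.05078, 0.08006 and 0.1032 without pre-molt replicates 1, 2 and 3. It was also lost with scaling to library totals (adjusted p = 0.1013) and with the replicate number as a block (adjusted p = 0.07157). On the 3′ side, the adjoining gene evm.TU.CM024134.1.313 held 24.4 ± 1.68 CPM post-molt and 24.8 ± 7.83 CPM pre-molt (log2 change -0.02, SE 0.24, edgeR adjusted p = 0.9777). The gene after it, evm.TU.CM024134.1.312, had 14 linked peaks and held 187 ± 10.2 CPM post-molt and 242 ± 37.1 CPM pre-molt (log2 change -0.37, SE 0.22, edgeR adjusted p = 0.3201). There every pre-molt library lay above every post-molt library. The other 5 flanking genes had log2 changes from -0.63 to 0.23.

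**Figure D4:**
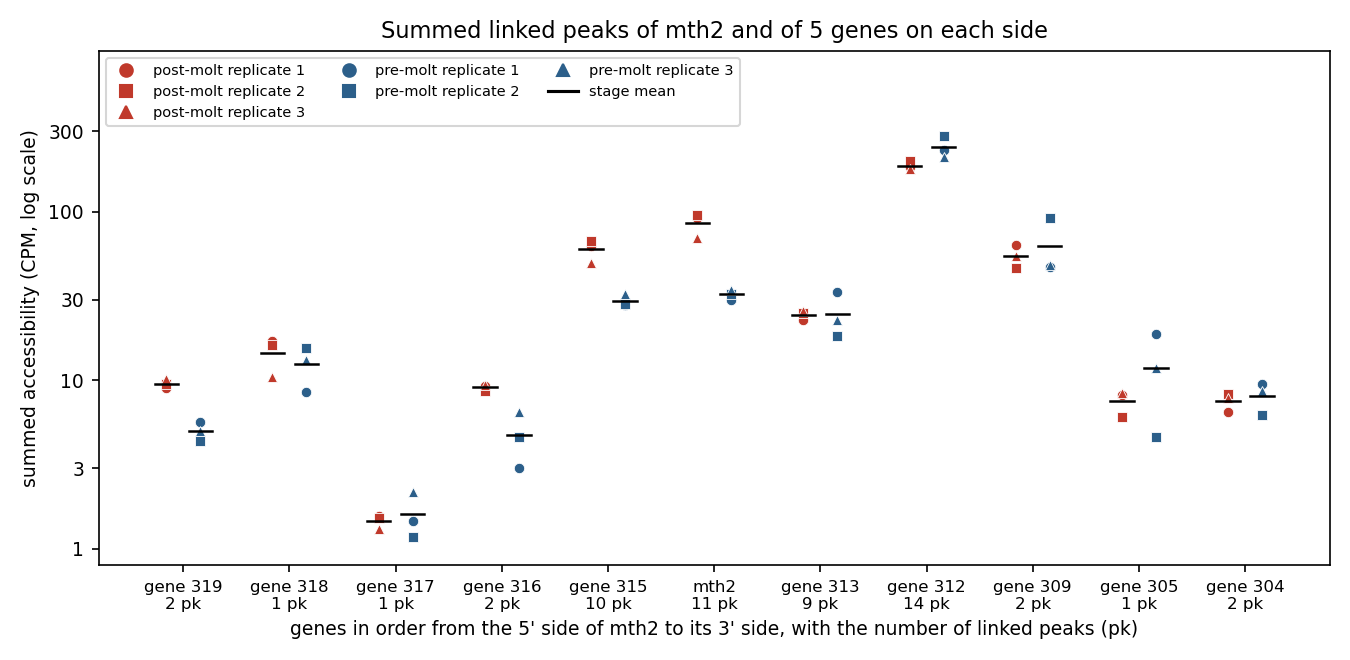
Summed CPM (log axis) over the linked peaks of mth2 and of 5 genes on each side, in order from its 5′ side (left) to its 3′ side (right), with post-molt libraries in red, pre-molt libraries in blue and stage means as black lines. The post-molt libraries lie above the pre-molt libraries at mth2 and at 3 genes on the 5′ side, evm.TU.CM024134.1.315, evm.TU.CM024134.1.316 and evm.TU.CM024134.1.319, and at no gene on the 3′ side. Such a separation held for 16.7% of all genes.

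Set against the 10 flanking genes together, mth2 stood higher in every post-molt library. The log2 ratio of its summed CPM to theirs was -2.06, -2.01 and -2.36 in post-molt replicates 1, 2 and 3, against -3.69, -3.82 and -3.39 in pre-molt replicates 1, 2 and 3. The stages did not overlap, and the difference was 1.49 on the log2 scale. Of the 11 linked peaks of mth2, 9 were listed in post-molt libraries only, which favours a higher post-molt ratio. An exact permutation test over the 6 libraries gave a two-sided p of 0.1, the smallest that its 20 splits allow, so this design cannot reach 0.05. The flanking genes themselves held 368 ± 24.5 CPM post-molt and 413 ± 69.9 CPM pre-molt, which overlapped. Most of this sum came from 1 gene, evm.TU.CM024134.1.312, with 187 ± 10.2 CPM post-molt and 242 ± 37.1 CPM pre-molt, so the ratio largely follows that gene. Taken by side, a choice made after the values were seen, the difference was 1.70 against the 3′ genes and 0.57 against the 5′ genes, again with no overlap in either. The sides themselves moved apart. The 3′ genes held 276 ± 11.3 CPM post-molt and 358 ± 66.9 CPM pre-molt, with every pre-molt library above every post-molt library, so a lower flank sum adds to that difference. The 5′ genes held 92.4 ± 13.4 CPM post-molt and 54.7 ± 9.55 CPM pre-molt, with the reverse order.

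Among 6 other genes that the study kept as receptors, 1 was called as higher, 2 as lower and 3 did not pass the test, where 6.90% of all genes were called as higher and 4.11% as lower. The study chose these genes, mth2 included, partly on these libraries, so the list gives no independent view of its direction. GRM7, a metabotropic glutamate receptor, held 27.6, 73.3 and 35.6 CPM post-molt, against 13.1, 8.89 and 10.7 CPM pre-molt (log2 change 2.06, SE 0.32, edgeR adjusted p = 0.001408). SSTR2, a somatostatin receptor, held 67.5 ± 13.5 CPM post-molt and 183 ± 8.70 CPM pre-molt (log2 change -1.44, SE 0.23, edgeR adjusted p = 0.001408). The gene moody, which in *D. melanogaster* acts in the blood-brain barrier, held 124 ± 14.5 CPM post-molt and 286 ± 75.1 CPM pre-molt (log2 change -1.21, SE 0.24, edgeR adjusted p = 0.006013). FMRFaR, gpr161 and Kpna6 had log2 changes from 0.27 to 0.42.

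The genes whose summed log2 CPM over the 6 libraries was most like that of mth2 were taken from the 6987 with at least 5 linked peaks. The closest was evm.TU.CM024164.1.284 (Pearson r = 0.996), with 89.9 ± 15.4 CPM post-molt and 35.8 ± 3.05 CPM pre-molt. The next was evm.TU.CM024140.1.185 (r = 0.995), with 75.5 ± 7.40 CPM post-molt and 29.1 ± 1.86 CPM pre-molt. Both lie on other chromosomes, and the table gives neither a name. With 6 points that mostly follow the stage, 196 genes reached an r above 0.95.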

How the data were processed

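Reads of ATAC-seq libraries from 3 post-molt and 3 pre-molt crabs (paired ends of 150 bases) were aligned with BWA and peaks called with MACS2, according to the submitters' processing notes. Coordinates follow the *E. sinensis* genome the authors used (sequences named CM024096.1 onward) and are 1-based. How peaks were merged, how reads were counted and whether reads were shifted for the Tn5 cut are not given in the sources used here. The study's methods describe peak calling with duplicates kept for libraries of the molt itself, so PCR copies may count as reads.

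The deposited table gives whole-number counts per merged peak and library, which all tests used. The authors' RPM values, deposited beside the counts, were made from count plus 1, and library totals were recovered from them (largest deviation 0.000498%). A plus or minus sign per library marks a peak of that library in the merged peak. The deposited peak lists give a fold enrichment, a ratio over local background, and −log10 p-values and q-values (smallest −log10 q 1.3), which served only for description. The table's columns of log2 fold change, p-value and q-value hold the authors' own comparison and were not used. The per-sample columns of the table all belong to a sample of the series.

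Counts of all merged peaks, and counts summed over the linked peaks of each gene, were tested post-molt against pre-molt with edgeR 4.0.16 (glmQLFit and glmQLFTest, TMM factors, no filter on low counts, Benjamini-Hochberg adjustment over the whole table, threshold 0.05) in R 4.3.3. TMM factors were computed separately for the peaks and for the gene sums, so the CPM of a gene differs slightly from the sum over its peaks. Peak usage was tested with diffSpliceDGE. Alternatives were library totals, median centring, filterByExpr, DESeq2 1.42.0, limma-voom (limma 3.58.1), each library left out in turn, the replicate number as a block, and other sets of peaks, flanks, list thresholds and overlaps. The edgeR test of peaks and of gene sums and the diffSpliceDGE test were first run on simulated data, and DESeq2 and limma-voom were not. Correlations used log2 CPM with a prior count of 2.

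Named were all peaks linked to mth2, the 5 genes with linked peaks nearest on each side, all merged peaks within 100 kb, 6 other receptors kept by the study (1 more is not reported here), and the 2 genes with at least 5 linked peaks most correlated with mth2. The members and lists were chosen with earlier results of these data known. Replicate numbers come from the titles. Nothing in the labels pairs the stages, and deviations of same-numbered libraries from their stage means correlated at -0.09, -0.10 and -0.03, so the libraries were not treated as paired.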

Additional observations from a re-analysis of the deposited data

How the results depend on the processing

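The summed log2 change of mth2 kept its direction and its call in all 27 alternatives, between 1.26 and 1.55, with adjusted p from 2.461e-07 to 0.01892. These include a repeat, since leaving out the start-site peak counts both as the largest peak left out and as 1 of the 11 peaks left out. The number of linked peaks called as higher, 7 in the report, was 5 with library totals, 8 with DESeq2, 5 with limma-voom and 3 to 6 with 1 library left out. Of all merged peaks, 4.98%, 6.48% and 3.63% were called as higher in the first 3 of these settings, and 2.29% to 5.62% with 1 library left out. Across the 11 peaks and 12 alternatives 20 calls were lost and 1 was gained, and no direction changed. With the replicate number as a block, which is no pairing given by the design, the log2 change was 1.40 (adjusted p = 0.0002431) and 6 linked peaks were called. Merged peaks called numbered 10410, against 6845 with limma-voom, 12116 with DESeq2 and 3996 (without post-molt replicate 2) to 8796 with 1 library left out, including 6771 without pre-molt replicate 2 and 5882 without pre-molt replicate 3. The share of these calls that were higher was 61.2%, and became 50.2% or 53.7% when pre-molt replicate 3 or 1 was left out and 70.0% when post-molt replicate 3 was. Genes called numbered 1972, against 992 with library totals and 985 (without post-molt replicate 2) to 1655 with 1 library left out, including 1174 without pre-molt replicate 3. The cause of these shifts was not tested. The difference to the flanking genes ranged from 1.40 to 1.61 with 1 library left out and was 1.51 with 3 genes on each side and 1.28 with all peaks within 100 kb. The 3 added choices, made after seeing the data, were the sides taken separately, the peaks inside the gene added, and the promoter peaks, or the linked peak with the highest mean read count (the start-site peak), left out (log2 change 1.53 and 1.55). Directions reversed only for flanking genes far from the threshold. The log2 change of evm.TU.CM024134.1.313 was 0.0346 with limma-voom, 0.0264 with the block and -0.198 to 0.221 with 1 library left out. With 1 library left out it was -0.0295 to 0.418 for evm.TU.CM024134.1.318, -0.410 to 0.195 for evm.TU.CM024134.1.309 and -0.305 to 0.126 for evm.TU.CM024134.1.317. The linked peaks held as few as 8 reads in a library.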
